A study of Mus musculus with 10 samples.

Results

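Lung DNA from 10 mice was searched for 1000 bp windows that were less methylated in DSE-treated mice than in every other mouse. Of 446336 windows deposited, 412413 lay on chromosomes 1 to 19 with at least 20 CpG calls in all 10 mice, and 1170 of these (0.284%) were selected. A call is 1 read of 1 CpG, and the methylation level of a window is the percentage of its calls that were methylated. A window was chosen where the highest of the 4 DSE-treated mice lay below the lowest of the 3 saline and 3 OVA-induced mice, and where the DSE mean lay at least 8 percentage points below the saline mean and at least 8 below the OVA mean. The windows were thus selected on the methylation values of all 10 mice, and their low level in DSE-treated mice is given as a description, without a test. Since windows start every 500 bp and overlap, the 1170 windows form 908 regions, of which 648 hold 1 window, 258 hold 2 and 2 hold 3. In 129 of the 258 regions of 2 windows, both windows had the same numbers of calls in all 10 mice. The numbers of CpGs given below are counted in the reference sequence, so some of these CpGs may have no calls.

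All mice were young adult female BALB/c mice, and the DNA came from whole lung. Saline mice received saline only. OVA-induced mice were sensitized to ovalbumin with alum and challenged with it through the nose, a model of allergic asthma. DSE-treated mice went through the same ovalbumin protocol and received by mouth an ethanol extract of Descurainia sophia seeds; their labels call them Herb, and the extract is the only herbal treatment the study describes. No group received the extract without ovalbumin, so an effect of the extract alone cannot be told apart from its effect in inflamed lung. Total calls over all deposited windows ranged from 306656737 to 410836272 per mouse, with the DSE-treated mice between 317014670 and 410836272, and a level of 50% measured with 20 calls has a 95% Wilson interval of 29.9% to 70.1%, which covers counting error only.

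DNA methylation in mammals is placed mainly on the cytosine of CpG dinucleotides by the DNMT enzymes and is removed by dilution at cell division or by TET oxidation. Most CpGs of the genome are methylated, whereas CpG islands at promoters are largely free of it, and enhancers in use often show intermediate levels that differ between cell types. Lung holds epithelial, endothelial, mesenchymal and immune cells, and ovalbumin brings further leukocytes into it. In bulk tissue a lower level can come from fewer cells that carry the mark or from less of the mark per cell, and these cannot be told apart here.

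The stretches of 300 bases with the most CpGs are shown for the windows with the clearest separation and for promoter windows, as examples of the DNA in these windows. Calls were summed per window, so the stretches do not show which CpGs carry the difference. They are from the plus strand of GRCm38 (mm10), 5′ to 3′, with each CpG in capitals. The Purb stretch, chr11:6476763-6477062, holds 6 of the 12 CpGs of its window, the Smyd3 stretch, chr1:179164167-179164466, both CpGs of its window, and the Dmac1 stretch, chr4:75278841-75279140, 4 of 8. The Fbxo11 stretch, chr17:88041258-88041557, holds 14 of 18, the Zfp27 stretch, chr7:29907107-29907406, 7 of 18, and the Cript stretch, chr17:87026002-87026301, 9 of 17.
Purb: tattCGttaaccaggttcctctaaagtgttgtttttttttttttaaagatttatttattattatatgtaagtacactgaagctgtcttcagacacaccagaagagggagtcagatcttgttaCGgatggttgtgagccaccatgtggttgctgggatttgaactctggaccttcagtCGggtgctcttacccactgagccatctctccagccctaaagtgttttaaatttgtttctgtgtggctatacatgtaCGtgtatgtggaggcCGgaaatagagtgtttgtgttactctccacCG
Smyd3: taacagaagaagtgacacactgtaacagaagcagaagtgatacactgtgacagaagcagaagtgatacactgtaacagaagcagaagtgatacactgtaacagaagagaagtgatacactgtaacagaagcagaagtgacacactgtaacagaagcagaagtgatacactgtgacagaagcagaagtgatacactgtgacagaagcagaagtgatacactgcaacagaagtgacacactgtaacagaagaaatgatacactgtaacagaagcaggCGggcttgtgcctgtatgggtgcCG
Dmac1: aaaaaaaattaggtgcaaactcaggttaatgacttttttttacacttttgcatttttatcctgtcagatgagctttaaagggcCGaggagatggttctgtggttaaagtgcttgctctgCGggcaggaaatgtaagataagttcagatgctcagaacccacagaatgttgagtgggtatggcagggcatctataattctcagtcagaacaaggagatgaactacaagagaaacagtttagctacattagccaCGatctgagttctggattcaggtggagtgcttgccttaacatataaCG
Fbxo11: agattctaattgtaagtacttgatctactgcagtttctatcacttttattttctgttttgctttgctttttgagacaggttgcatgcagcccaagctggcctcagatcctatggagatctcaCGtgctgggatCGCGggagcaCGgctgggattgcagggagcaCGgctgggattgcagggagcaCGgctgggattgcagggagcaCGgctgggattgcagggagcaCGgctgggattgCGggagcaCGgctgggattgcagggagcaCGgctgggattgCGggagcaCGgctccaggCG
Zfp27: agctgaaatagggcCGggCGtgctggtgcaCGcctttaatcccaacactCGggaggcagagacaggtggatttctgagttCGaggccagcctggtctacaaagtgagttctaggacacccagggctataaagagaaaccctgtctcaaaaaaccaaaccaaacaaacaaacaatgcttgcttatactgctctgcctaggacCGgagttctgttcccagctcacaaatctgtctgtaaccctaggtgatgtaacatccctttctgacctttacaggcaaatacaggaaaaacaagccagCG
Cript: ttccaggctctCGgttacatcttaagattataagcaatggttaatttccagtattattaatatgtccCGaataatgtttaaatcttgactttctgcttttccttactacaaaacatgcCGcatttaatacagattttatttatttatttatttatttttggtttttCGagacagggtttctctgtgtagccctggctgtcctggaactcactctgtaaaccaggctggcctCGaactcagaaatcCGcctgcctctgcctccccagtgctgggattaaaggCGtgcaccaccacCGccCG
The Fbxo11 and Smyd3 stretches hold tandem repeats, in which 1 word of 12 bases occurs 8 and 7 times, counted without overlap.

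Across the 1170 windows, mean methylation was 67% ± 1.26 in saline mice (SD over mice, n = 3), 66.5% ± 1.23 in OVA-induced mice (n = 3) and 52.5% ± 1.02 in DSE-treated mice (n = 4). The single DSE-treated mice averaged 51.3%, 53.5%, 52.1% and 53.2%, and the other 6 mice 65.1% to 68.1%. Replicate 1 was the lowest DSE-treated mouse in 418 windows, replicate 3 in 311, replicate 4 in 232 and replicate 2 in 209. Over all 412413 windows the group means were 51.1% ± 0.282, 52.4% ± 0.479 and 52.3% ± 0.489 in the same order, with the DSE mean between the other group means. The smaller of the 2 mean differences had a median of 10.7 percentage points and a maximum of 54.4. It reached 10 points in 682 windows, 15 in 210, 20 in 83 and 30 in 14. Most windows thus lay between the margin of 8 points and 15 points. The gap between the lowest of the 6 other mice and the highest DSE-treated mouse had a median of 3.08 points and a maximum of 31.3. Just inside the margin lay windows in introns of Ptpn12 (8.0006 points) and Camk1d (8.0082) and one near Oog1 (8.0061). Just outside lay windows in introns of Ncoa2 (7.9952) and Rassf4 (7.9865) and one near Gm2027 (7.9838).

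The opposite pattern, with all 4 DSE-treated mice above the other 6 and the same margin, was met by 2332 windows in 1876 regions, 0.565% of those analysed. Without a margin, every DSE-treated mouse lay below all others in 4839 windows (1.17%) and above all others in 10901 (2.64%).

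In saline mice, whose values entered the choice, the windows were partly to highly methylated. Their saline level had a median of 68.7% with quartiles of 55.5% and 80.7%, against a median of 56.7% over all windows. In saline mice 858 windows (73.3%) lay between 20% and 80%, 310 (26.5%) above 80% and 2 under 20%. Over all windows these shares were 54.9%, 22.4% and 22.6%. In DSE-treated mice the windows had a median of 53.0%, 1078 (92.1%) lay between 20% and 80%, 55 lay above 80% and 37 under 20%. The DSE levels of the windows were thus mostly intermediate and seldom near the unmethylated state. The number of selected windows per 1000 windows was 2.84 over all levels and was highest, 5.38, where saline mice had 60% to 70%. It was 0.847 at 20% to 30% and 2.68 at 90% to 100%. Since a difference of 8 points needs a level of at least 8%, and since the saline values entered the choice, the empty range at the low end is set in part by the rule. Windows of the opposite pattern had a median saline level of 29.1%, and their rate peaked at 17.7 per 1000 between 20% and 30%.

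**Figure D1:**
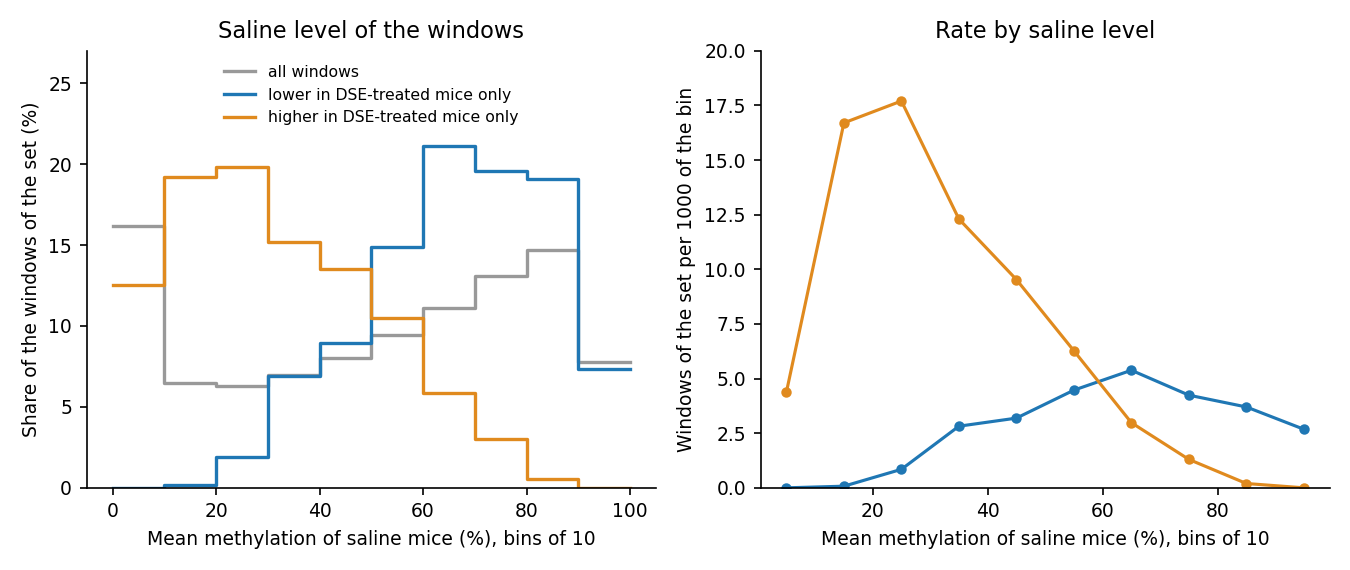
Saline methylation of the windows. Left, share of windows (%) in each 10% bin of the mean level of 3 saline mice, for all 412413 windows, for the 1170 windows lower and for the 2332 windows higher in DSE-treated mice only. Right, windows of each set per 1000 windows of the bin, with the lower set peaking at 5.38 between 60% and 70% and the higher set at 17.7 between 20% and 30%.

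By location, 100 windows (8.55%) overlapped a promoter, taken as 1000 bp on either side of a RefSeq transcription start, 144 (12.3%) an exon, 449 (38.4%) an intron only, and 477 (40.8%) were intergenic. Over all windows the shares were 19.7%, 13.7%, 30.1% and 36.5%, so that promoters made up a smaller and introns a larger share of the selected windows. Only 7 windows (0.598%) contained a transcription start, compared with 8.32% of all windows. The saline level, which entered the choice of the windows, differed between features. Of all promoter windows 64.1% were under 20% methylated in saline mice, and these held 2 selected windows, 0.0384 per 1000. Among windows between 20% and 80% in saline, the rate per 1000 was 3.48 for promoters, 3.01 for exons, 4.05 for introns and 3.9 for intergenic DNA. Above 80% it was 2.72, 2.60, 4.01 and 3.26 in the same order. In the opposite pattern promoters made up 23.7% of the windows. The median distance to the nearest start was 21100 bp for the selected windows and 15000 bp over all windows, and 355 (30.3%) lay over 50 kb away, against 25.4% of all windows. In the opposite pattern the median was 17900 bp, and 30.4% lay over 50 kb away. Every autosome held some of the selected windows, from 1.74 per 1000 windows on chromosome 7 to 4.52 on chromosome 6.

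**Figure D2:**
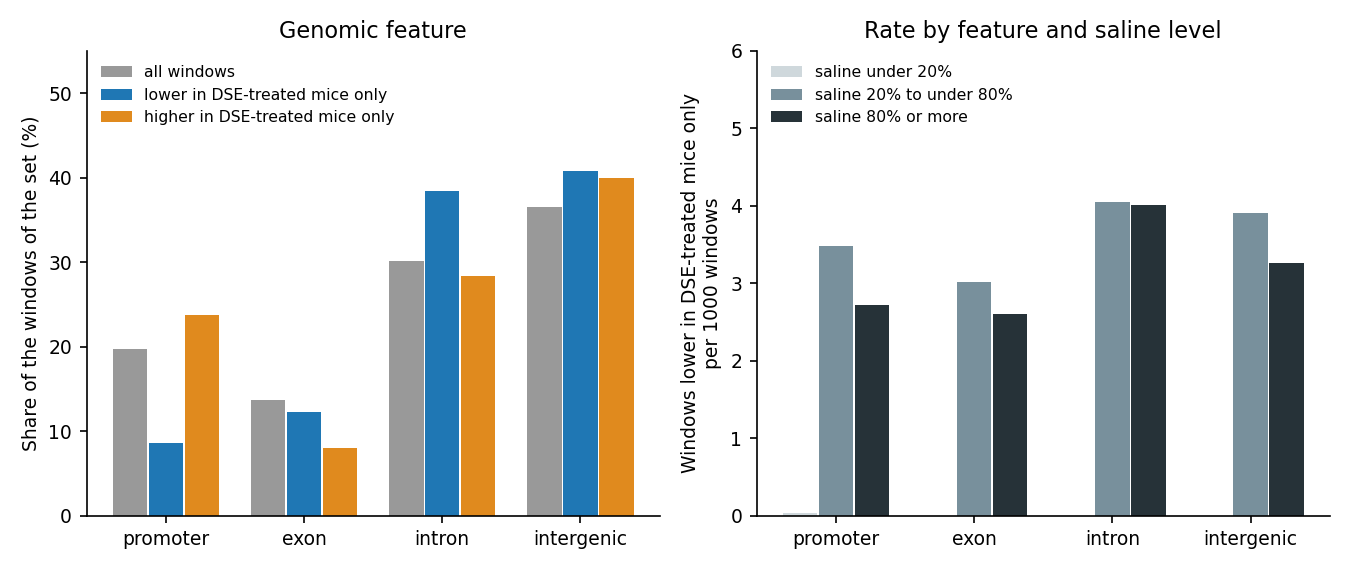
Genomic location. Left, share (%) of all windows and of the windows lower or higher in DSE-treated mice only by feature, with promoters at 19.7%, 8.55% and 23.7%. Right, windows lower in DSE-treated mice only per 1000 windows of a feature, split by the saline level, where promoters have 0.0384 under 20% and 3.48 between 20% and 80%.

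The windows were poor in CpGs. They held a median of 9 CpGs (quartiles 6 and 12) against 13 over all windows, and 151 (12.9%) held fewer than 5, compared with 4.69%. Their median GC content was 42.8% against 47.4%, and 4 windows (0.342%) had the composition of a CpG island, defined here as a GC content of at least 50% and a ratio of observed to expected CpGs of at least 0.6, against 6.86% of all windows. Repeats, marked by lower case letters in the reference sequence, covered a median of 21.1% of a window against 16.0%. Windows of the opposite pattern had medians of 11 CpGs, 43.0% GC content and 17.9% repeats, so the low GC content was shared by both directions. A window with few CpGs rests on few sites, and the Smyd3 window shown above has 2. Short binding motifs were counted on both strands as exact letters. The ETS word AGGAAGT was found in 371 windows (31.7%) and in 24.2% of all windows, the AP-1 word TGANTCA in 365 (31.2%) and 25.7%, the GATA word AGATAAG in 208 (17.8%) and 13.1%, and the RUNX word TGTGGTT in 291 (24.9%) and 21.6%. The FOX word TGTTTAC was in 13.3% and 13.1%, the TEAD word GGAATGT in 13.6% and 13.3%, and the NKX2 word CACTTGA in 13.9% and 12.7%. Words with a CpG were less common, with the E-box CACGTG in 10.7% against 15% and the AHR word TTGCGTG in 2.56% against 3.01%. No motif contains the letters of another, and these shares were not adjusted for the lower GC content.

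Outside the regions the groups differed little. Windows that began 0 to 500 bp outside a region averaged 50.4% in saline mice, 48.9% in OVA-induced mice and 48.7% in DSE-treated mice, with 711 windows, and those at 500 to 1000 bp averaged 45.1%, 44.4% and 44.4%, with 505 windows. The difference between saline and DSE-treated mice was 14.5 points inside the regions, and 1.66 and then 0.710 points outside them. Windows that met the rule were left out of the outside windows, so this fall at the edge is set in part by the selection. The neighbours were less methylated than the regions themselves in saline mice. A selected window and a window that touched it without overlap made up 826 pairs, from 674 selected windows. The neighbour had the lower saline level in 542 (65.6%) and more calls in 582 (70.5%). Over all windows each share is 50% by construction, since every pair is counted from both sides. The saline level of the selected windows entered their choice, so nothing is read from these shares. The DSE level of the selected window lay between its own saline level and that of the neighbour in 379 pairs (45.9%), close to the 47.5% of all pairs. For 466 selected windows (39.8%) neither neighbour was in the deposited table, compared with 27.5% of all windows and 36.1% of those of the opposite pattern. Of the 890 windows that overlapped a region of 1 window, 107 also had all DSE-treated mice below all others, as did 1.17% of all windows. A DSE mean below both other means was found in 588. Each of the 890 shares 500 bp with a selected window, so these counts are set in part by the selection.

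**Figure D3:**
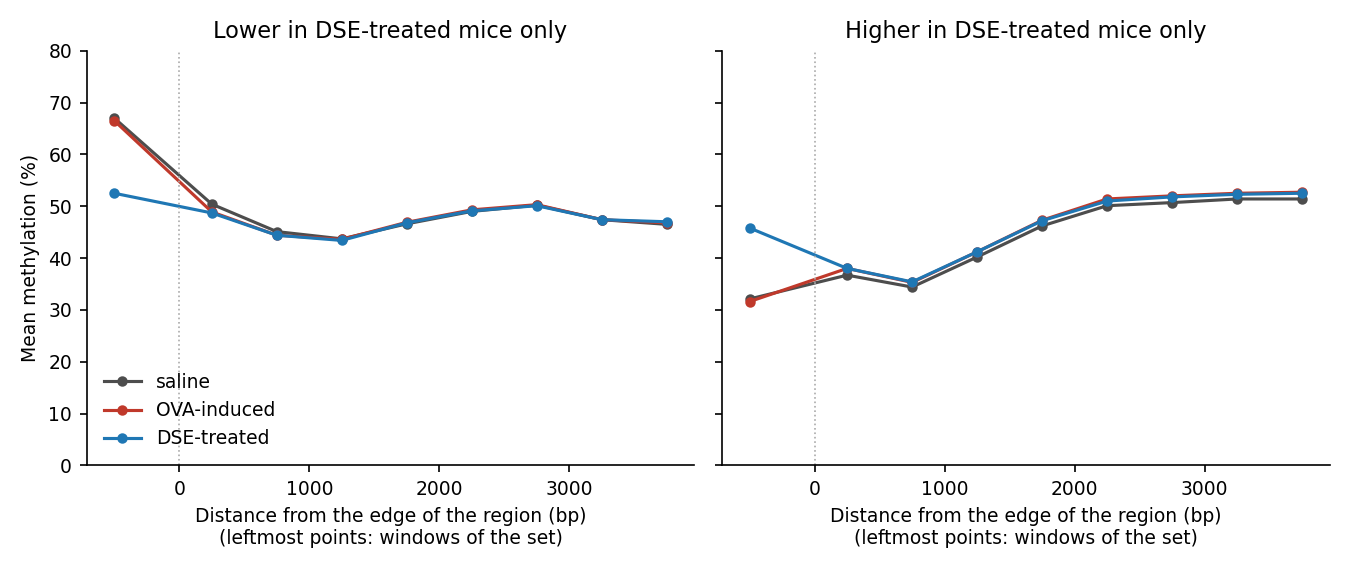
Mean methylation (%) of saline, OVA-induced and DSE-treated mice in the selected windows (leftmost points) and in windows outside the regions, by distance from the region's edge (bp, bins of 500). The outside windows leave out those that met the rule of the set. For the lower set, left, the groups differ by 14.5 points between saline and DSE inside and by 1.66 at 0 to 500 bp. For the higher set, right, DSE-treated mice have 45.8% against 32.1% in saline inside and 38.0% against 36.7% at 0 to 500 bp.

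Sequencing depth moved with the selection. The mean calls of the DSE-treated mice divided by those of the other 6 mice had a median of 1.66 at the selected windows, 1.53 at the windows of the opposite pattern and 1.09 over all windows. In 704 selected windows (60.2%) each DSE-treated mouse had more calls than every other mouse, against 16.0% of all windows. Median calls per window were 297, 244.5, 244.5 and 246.5 in the DSE-treated mice and 125 to 174.5 in the others, whereas over all windows they were 434 to 553 and 379 to 460. The rate of selected windows was 1.23 per 1000 where the ratio was under 0.9, 0.531 between 0.9 and 1.1, 4.25 between 1.3 and 1.5, and 27.2 at 2.5 or more, and that of the opposite pattern was 1.65, 1.20, 10.5 and 42.2 in the same bins. Above a ratio of 1.1 both directions thus became more frequent with the relative depth of the DSE-treated libraries. Over all windows of a ratio of 2.5 or more the group means were 59.6%, 60.1% and 60%. The part of the unequal depth in the selected windows was not tested. With the ratio held to at most 1.3, 310 windows in 249 regions remained, whose group means were 67.2% for saline, 65.2% for OVA-induced and 53.1% for DSE-treated mice. Of these 6.45% overlapped a promoter and 47.4% were intergenic.

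**Figure D4:**
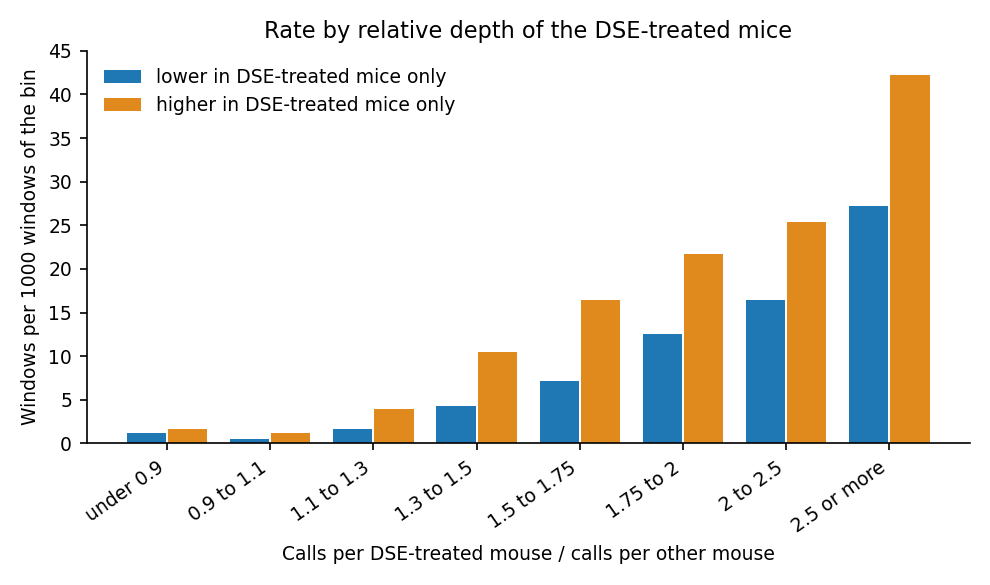
Windows lower (blue) and higher (orange) in DSE-treated mice only, per 1000 windows, by the ratio of mean calls in DSE-treated mice to mean calls in the other 6 mice. Both rates are lowest at 0.9 to 1.1, with 0.531 and 1.20, and highest at 2.5 or more, with 27.2 and 42.2.

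Methylation at promoters of cell type markers was averaged over each list. Whether these levels track the numbers of cells in the lung was not tested. Over 73 marker genes with a promoter window, in 11 lists, 0 had all 4 DSE-treated mice below the other 6 and 0 had all 4 above, where 1.17% and 2.64% of all windows did, so that few would be found among 73. Pan-leukocyte promoters averaged 49.0% ± 1.01 for saline, 38.8% ± 2.30 for OVA-induced and 39.2% ± 1.25 for DSE-treated mice (SD; n = 3, 3 and 4). The ovalbumin groups overlapped there, with 36.8% to 41.3% and 37.7% to 40.7%. Eosinophil, basophil and mast cell promoters had 49.9% ± 1.53, 45.3% ± 1.53 and 44.2% ± 2.06, fibroblast and smooth muscle promoters 17.4% ± 0.961, 20.8% ± 1.37 and 21.4% ± 1.1, and macrophage promoters 48.1% ± 2.36, 49.7% ± 0.341 and 45.6% ± 0.515. In the macrophage list, 4 genes, the DSE-treated mice at 45.1% to 46.3% lay below the OVA-induced mice at 49.4% to 50% and overlapped the saline mice at 45.6% to 50.2%. Alveolar type 2 promoters had 32.4%, 32.5% and 32.2%, alveolar type 1 23.4%, 25.2% and 24.7%, airway promoters, 3 genes, 31.3%, 32.3% and 33.3%, endothelial 19.4%, 22.5% and 21.8%, T cell 60.7%, 58.6% and 59.2%, B cell 39.2%, 40.0% and 40.7%, and neutrophil promoters, 1 gene, 53.1%, 47.6% and 54.0%. The part of cell composition in the selected windows was not tested.

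The widest gaps among windows with at least 50 calls in every mouse, 1 per region, included both promoters and gene bodies. Purb encodes a protein that binds purine-rich DNA strands and represses smooth muscle actin. Its window, chr11:6476501-6477500, lies 425 bp upstream of the start and holds 12 CpGs. It had 63.5%, 53.2% and 49.4% in saline, 56.6%, 52.2% and 52.4% in OVA-induced, and 25.2%, 28.2%, 28.8% and 29.9% in DSE-treated mice. The DSE mean of 28.0% ± 2.02 (n = 4) was about as far below saline (27.4 points) as below OVA (25.7 points), with the DSE-treated mice at 659 to 997 calls and the others at 196 to 425. Smyd3 encodes a lysine methyltransferase, and its window in intron 5, chr1:179163501-179164500, holds only the 2 CpGs shown above, which lie beside the repeat and not within it. There saline mice had 88.3%, 85.8% and 95.9%, OVA-induced mice 88.1%, 94.9% and 92.6%, and DSE-treated mice 51.0%, 63.9%, 65.7% and 66.6%, with 266 to 514 calls per mouse. The window upstream of Dmac1, which encodes an assembly factor of respiratory complex I, chr4:75278501-75279500, lies 209 bp from the start. It had 74.7%, 53.9% and 45.3% in saline, 71.7%, 46.7% and 54.9% in OVA-induced, and 13.5%, 25.6%, 17.8% and 26.7% in DSE-treated mice. The spread was wide in saline (SD 15.1) and OVA-induced mice (SD 12.8), and calls were unequal, with 345 to 727 in DSE-treated and 82 to 150 in the other mice.

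Fbxo11 encodes the substrate-binding subunit of an SCF ubiquitin ligase that acts on BCL6 in B cells. Its window in intron 1, chr17:88041001-88042000, had 73.1%, 72.1% and 70.2% in saline, 74.6%, 64.5% and 61.9% in OVA-induced, and 33.9%, 43.9%, 37.1% and 45.3% in DSE-treated mice. Immp2l, a subunit of the mitochondrial inner membrane peptidase, had a window in intron 4, chr12:41325501-41326500, with 82.9%, 86.7% and 86.6%, then 82.2%, 81.5% and 84.7%, then 58.8%, 60.3%, 62.3% and 65.9% in the same order of groups. In both genes the DSE-treated mice were also the deepest libraries, with 3.95 and 2.86 times the calls of the others. Bard1, the partner of BRCA1 in DNA repair, had a window in intron 9, chr1:71045001-71046000, with 89.1%, 92.5% and 87.6% in saline, 87.4%, 86.4% and 93.8% in OVA-induced, and 62.3%, 69.8%, 69.3% and 71.5% in DSE-treated mice. A window 30368 bp upstream of St6galnac3, a sialyltransferase gene, chr3:153755501-153756500, had 77.6%, 73.8% and 78.9%, then 86.1%, 78.6% and 75.2%, then 52.7%, 58.5%, 54.0% and 55.6%. The SDs in DSE-treated mice were 4.09 and 2.49 points there, against a median of 3.45 over the selected windows. Gm29514, a noncoding RNA, had a window over its exon 5, chr1:146426501-146427500, with means of 90.7% ± 5.15, 93.0% ± 3.74 and 67.4% ± 4.0. Kctd16, whose protein is an auxiliary subunit of GABA-B receptors, had a window in intron 2, chr18:40307501-40308500, with means of 69.2% ± 2.39, 70.7% ± 8.32 and 48.4% ± 3.67.

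The remaining window of this group lies in ribosomal DNA. Its nearest RefSeq start belongs to Esp38, 102520 bp away, but GENCODE annotates a ribosomal RNA gene, CT010467.1, across it, chr17:39847001-39848000. Saline mice had 79.0%, 65.6% and 61.9%, OVA-induced mice 64.5%, 73.5% and 69.7%, and DSE-treated mice 42.1%, 45.5%, 41.3% and 36.2%. The window and the selected window before it held 82 and 86 CpGs and had 0.503 and 0.530 times the calls in DSE-treated mice, the reverse of most selected windows. Mean calls per mouse were 6950 and 4580 in these windows. The windows that start 500 bp before and after the pair each share 500 bp with it, and their mean calls were 142000 and 92500. Their methylation was 26.8% ± 8.16 and 23.1% ± 7.16 in saline, 30.3% ± 8.78 and 27.5% ± 6.76 in OVA-induced and 31.3% ± 7.73 and 25.9% ± 6.66 in DSE-treated mice. The groups overlapped in those deep windows. The DSE level of the pair, 41.2% and 39.1%, lay between the level of the pair in the other groups and that of these overlapping windows. Ribosomal DNA is present in many near-identical copies, and whether reads of other copies were counted here was not tested.

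**Figure D5:**
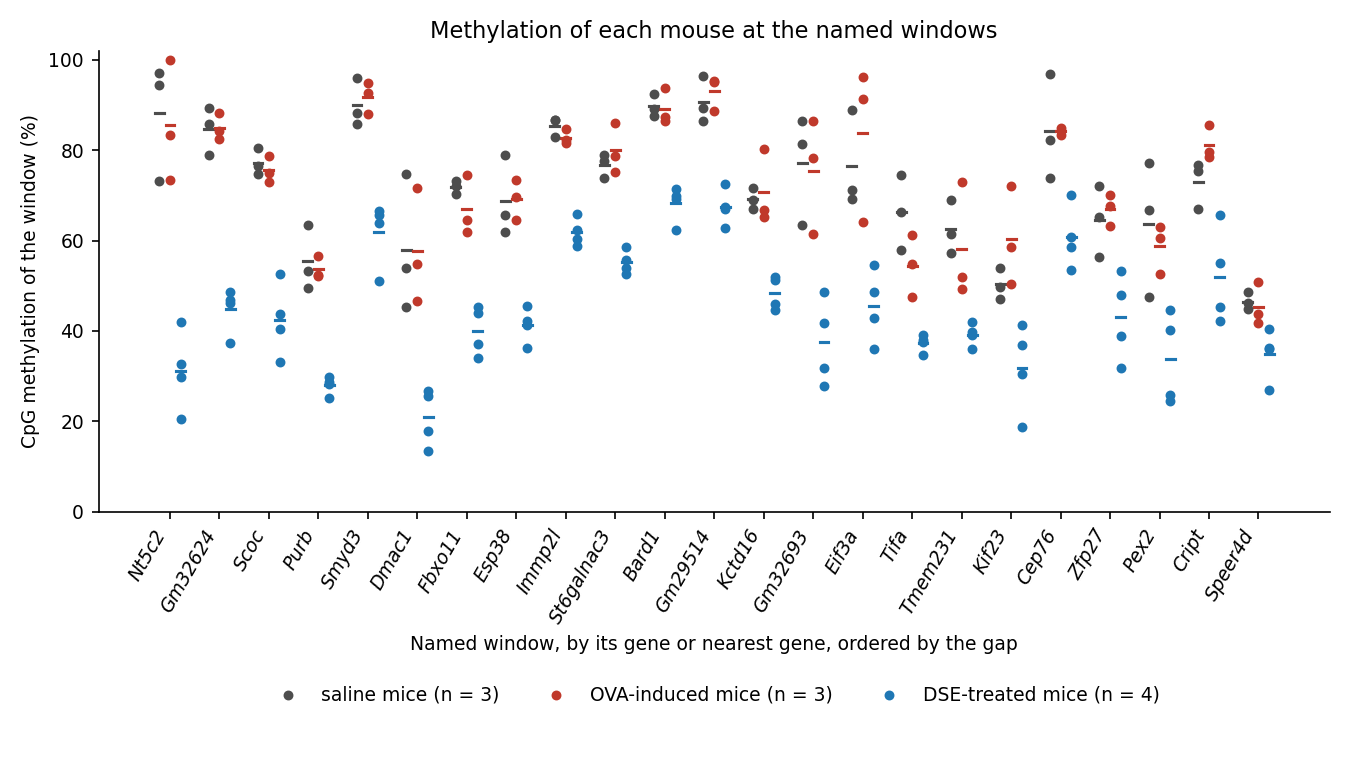
CpG methylation (%) of each mouse at the 23 named windows, ordered by the gap between the lowest saline or OVA-induced mouse and the highest DSE-treated mouse. Points are mice and short lines group means, for 3 saline, 3 OVA-induced and 4 DSE-treated mice. By the rule all DSE points lie below the others, with the gap going from 31.3 points at Nt5c2 to 1.18 at Speer4d.

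Of the 100 promoter windows, the 8 of protein-coding genes with the largest difference at 50 calls or more included Dmac1 and Purb. Zfp27, a zinc finger gene, had a window 469 bp upstream of its start, chr7:29907001-29908000. It had 56.3%, 65.2% and 72.0% in saline, 67.7%, 63.2% and 70.1% in OVA-induced, and 31.9%, 53.3%, 38.9% and 48.0% in DSE-treated mice, which leaves a gap of 3.06 points. Cript, whose protein binds PDZ domains at synapses, had a window in intron 1, 440 bp past the start, chr17:87026001-87027000. Its levels were 76.7%, 75.4% and 66.9%, then 85.6%, 78.4% and 79.7%, then 45.2%, 55%, 42.2% and 65.6%. The gap was 1.28 points there, since DSE replicate 4 came close to saline replicate 3. Tifa encodes an adaptor that carries bacterial sugar signals to TRAF6 and NF-kappaB. Its window in intron 2, chr3:127791501-127792500, 844 bp past a start, had 66.3%, 74.6% and 57.9% in saline, 54.8%, 47.4% and 61.2% in OVA-induced, and 39.1%, 37.6%, 34.6% and 38.1% in DSE-treated mice. Kif23, a kinesin of cell division, had means of 50.3% ± 3.50, 60.3% ± 11.0 and 31.8% ± 9.83 at chr9:61945001-61946000. Tmem231, part of the base of the cilium, had 62.6% ± 5.89, 58.0% ± 13.0 and 39.2% ± 2.48 at chr8:111934001-111935000. Cep76, a centrosomal protein gene, had 84.3% ± 11.7, 84.2% ± 0.731 and 60.7% ± 6.94 at chr18:67639501-67640500. The DSE mean stayed above 20% in each of the 8 promoter windows. Group means went from 20.9% at Dmac1 in DSE-treated mice to 84.3% at Cep76 in saline mice. These windows lay 188 to 855 bp from the start of the named gene and did not contain it.

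The regions with the most windows were 2 of 3 windows each, near Pex2 and Speer4d, followed by regions of 2 windows ranked by the size of the difference. The Pex2 region, chr3:5859501-5861500, lies 284253 bp upstream of this peroxisome gene, has 33 CpGs in its strongest window and 70.4% repeats, and had means of 63.7% ± 15.1, 58.7% ± 5.40 and 33.9% ± 10.1, with a depth ratio of 0.772. The Speer4d region, chr5:15605501-15607500, is intergenic. Its strongest window lies 11599 bp upstream of Speer4d, a gene of a multi-copy family. That window had 46.5% ± 1.94, 45.4% ± 4.78 and 34.9% ± 5.73 at a ratio of 1.07, and the others had ratios of 2.07 and 1.82. Whether reads of other copies were counted there was not tested. The largest difference of all was in Nt5c2, a cytosolic nucleotidase gene, at chr19:46896501-46897500, a window that overlaps an exon with its middle in intron 8 and has 6 CpGs. Saline mice had 73.2%, 94.4% and 97.1%, OVA-induced mice 100%, 73.5% and 83.3%, and DSE-treated mice 29.7%, 32.7%, 20.5% and 41.9%, with 24 to 56 calls in the first 6 and 55 to 165 in DSE-treated mice. At few calls the single levels are imprecise, since 50 calls at 50% have a 95% Wilson interval of 36.6% to 63.4%. Intron 1 of the noncoding RNA Gm32624, chr16:86820501-86821500, had means of 84.7% ± 5.2, 85.0% ± 2.94 and 44.7% ± 5.06 with 11.8 times the calls in DSE-treated mice. Intron 1 of Scoc, a Golgi protein gene with a role in autophagy, chr8:83450501-83451500, had 77.2% ± 2.92, 75.5% ± 2.86 and 42.4% ± 8.09. Windows near Gm32693 (77.1% ± 12, 75.3% ± 12.8 and 37.5% ± 9.52) and 1808 bp upstream of the translation factor gene Eif3a (76.4% ± 10.8, 83.8% ± 17.3 and 45.5% ± 7.91) had the wider spreads. Of the 23 named windows 19 had a depth ratio over 1.5 and 3 a ratio under 1.1.

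Outside the strongest windows, 527 genes, 493 of them protein-coding, held a selected window in a promoter, exon or intron. Counting intergenic windows by their nearest gene, 46 of 864 genes had 2 or more regions, and 1 had 3. This was Camk1d, a calcium/calmodulin-dependent kinase gene, with 4 windows of 128 analysed. Its intron windows had 31.2% ± 5.68 in saline and 13.7% ± 2.25 in DSE-treated mice at chr2:5597001-5598000, 64.2% ± 0.871 and 51.3% ± 2.47 at chr2:5691001-5692000, and 58.5% ± 4.93 and 44.7% ± 1.44 at chr2:5417001-5418000. The OVA-induced means were 22.2%, 61.8% and 52.7% in the same order, between the other groups in each.

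Gene lists for lung cells, allergic inflammation and signalling were counted over windows from 5000 bp upstream to the end of each gene. Of 21 lists, 10 had at least 1 selected window and 11 had none, against a background of 2.84 selected windows per 1000 and a median difference between DSE-treated and saline mice of 0.743 points over all windows. Type 2 cytokines, alarmins and their receptors had 0 in 365 windows of 22 genes (median difference 0.177), chemokines and receptors 0 in 152 windows of 23 genes (0.234), xenobiotic and oxidative stress genes 0 in 436 windows of 28 genes (0.462), glucocorticoid receptor and targets 0 in 381 windows of 13 genes (0.558), and extracellular matrix genes 0 in 1258 windows of 50 genes (0.817). At the background rate such lists would hold few windows, so these counts say little. Interferon gamma and other cytokines had 2 in 467 windows, both of Il12rb2 (0.239), lung development regulators 2 in 1499, both of Meis1 (0.603), DNA methylation enzymes 1 in 404, of Tdg (0.357), and axon guidance and synaptic adhesion genes 4 in 2544, of Epha4, Plxnc1 and Robo2 (1.08).

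Genes of cyclic nucleotide and calcium signalling, among whose roles is the tone of airway smooth muscle, had 10 selected windows among 2022. This was 4.95 per 1000, against 2.84 over all windows, and was not tested. The windows lay in 8 of 48 genes, with 2 each in Camk2a and Prkar2b. The median difference over all windows of the list was 1.02. The 8 were the phosphodiesterases Pde4d and Pde1a, the inositol trisphosphate receptors Itpr1 and Itpr2, the adenylyl cyclases Adcy7 and Adcy9, the kinase Camk2a and the protein kinase A subunit Prkar2b. The same list had 12 windows of the opposite pattern among the 2022, in 6 genes, where 5.65 per 1000 of all windows had that pattern. In an intron of Pde4d, the enzyme that degrades cyclic AMP, chr13:109735501-109736500 had 82.4%, 78.1% and 93.1% in saline, 85.0%, 73.8% and 81.2% in OVA-induced, and 70.5%, 72.0%, 64.9% and 66.3% in DSE-treated mice. Its gene has 199 analysed windows, 1 of them selected. Itpr1, a calcium channel of the endoplasmic reticulum, had 90.9%, 83.3% and 86.8%, then 77%, 77.7% and 74.6%, then 62.9%, 60.4%, 73.3% and 63.6% at chr6:108325501-108326500. Here the OVA-induced mice also lay below all saline mice. Adcy9 had 61.1%, 60.8% and 60.8%, then 64.8%, 61.2% and 67.5%, then 52.6%, 50.1%, 52.9% and 50.8% at chr16:4414501-4415500, with 945 to 1472 calls per mouse and a depth ratio of 1.20. It was the most deeply covered of the 8 and had the lowest depth ratio. The ratio was 2.91 at Pde4d, 2.57 at Pde1a, 2.44 at Itpr1, 2.16 at Prkar2b, 1.57 at Itpr2, 1.40 at Camk2a and 1.27 at Adcy7. The 5 genes without levels given here had differences from saline of 9.99 to 24.6 points.

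Among single genes of the other lists, Epha4, a receptor of ephrins, had the largest value of the smaller of its 2 mean differences, 21.7 points from saline. At chr1:77446501-77447500, in an intron, it had 93.3%, 90.9% and 90.7% in saline, 95.7%, 88.9% and 96.3% in OVA-induced, and 69.5%, 70.0%, 70.6% and 69.9% in DSE-treated mice, with 27 to 93 calls. Il5ra, the receptor chain for the eosinophil cytokine IL-5, had 88.7%, 90.2% and 81.8%, then 78.6%, 82.5% and 88.9%, then 73.5%, 65.7%, 69.0% and 68.3% in an intron at chr6:106727001-106728000, with 28 to 71 calls. Ptprc, which encodes the leukocyte antigen CD45, had 69.3%, 76.0% and 61.8%, then 55%, 57.4% and 55.1%, then 45.9%, 46.5%, 53.9% and 39.5% in an intron at chr1:138134001-138135000. At Ptprc the 3 groups did not overlap, with the OVA-induced mice between the others. Acta2, the smooth muscle actin gene, had 71.2%, 61.5% and 66.7%, then 73.6%, 74.9% and 76.9%, then 54.1%, 61.1%, 50.6% and 55.9% at an exon, chr19:34241001-34242000, with 626 to 1698 calls. The OVA-induced mice lay above all saline mice there, and DSE replicate 2 came close to saline replicate 2. Tdg, a glycosylase that removes oxidized methylcytosine, had 47.0% ± 2.94, 47.9% ± 5.33 and 36.1% ± 3.11 in an intron, and Il12rb2, a chain of the IL-12 receptor, 88.1% ± 2.25, 87.5% ± 4.83 and 76.2% ± 2.37. Gprc5a, a receptor gene of alveolar type 1 cells, had 90.6% ± 3.42, 95.8% ± 7.22 and 78.5% ± 5.2 upstream of its start, and Ebf1, a B cell transcription factor gene, 47.4% ± 5.45, 52.6% ± 9.41 and 38.5% ± 3.18. Alveolar type 2, airway, endothelial, T cell, macrophage and neutrophil marker genes held none. Depth ratios were 1.31 at Epha4, 1.42 at Il5ra, 1.52 at Ptprc, 1.79 at Acta2, 2.27 at Tdg, 1.19 at Il12rb2, 1.28 at Gprc5a and 1.24 at Ebf1. Of the 19 list genes with a selected window, 10 had a ratio over 1.5.

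The comparison of OVA-induced with saline mice did not use the DSE-treated mice, though the rule bounds both groups from below. By a likelihood ratio test of pooled calls, with thresholds of 0.01 on the adjusted p (Benjamini-Hochberg) and 10 points on the difference, 11 of the 1170 windows (0.940%) were higher and 36 (3.08%) lower in OVA-induced mice. Over all windows 4.89% were higher and 2.64% lower, but the saline and OVA-induced values also entered the choice of the windows, so nothing is read from these shares or from the p-values below. The median difference was -0.34 points at the selected windows, whose OVA mean was below the saline mean in 633 and above it in 537, and 0.72 over all windows. In 819 windows (70.0%) the group means differed by less than 5 points, compared with 70.7% of all windows. This test leaves out the spread between mice. With limma on M-values 0 of the 1170 windows had an adjusted p under 0.05, as did 0 of all 412413 windows. An unadjusted p under 0.05 was found for 143 (12.2%), against 20% of all windows. When overdispersion was allowed for with an F test, 0 were called, and 0 of all windows had an adjusted p under 0.01. The unadjusted p of this test was under 0.05 in 64 windows (5.47%), against 15.6% of all windows. None of the 23 named windows met both thresholds. Kif23 met that on the adjusted p, 0.00988 by likelihood ratio and 0.364 by limma, but not that on the difference, 9.19 points. Of the windows of list genes, those of Ptprc (-12.5 points, adjusted p = 2.43e-07 by likelihood ratio and 0.152 by limma) and Itpr1 (-10.6 points, 0.00649 and 0.113) were called lower in OVA-induced mice.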

How the data were processed

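Genomic DNA of whole lung from 3 saline, 3 OVA-induced and 4 DSE-treated mice was enriched with SureSelect Methyl-seq baits, treated with bisulfite and sequenced. The submitters' processing notes name cutadapt 1.10, Bismark 0.19.0, methylKit 1.0.0 and mm10. The deposited count table holds, for each mouse and 1000 bp window (step 500 bp), the authors' coverage and counts of methylated and unmethylated calls, with at least 10 calls in every mouse. Calls were not normalized, and all sample columns were mapped to mice by name. Labels number the samples as replicates within each group, and the study describes them as 3, 3 and 4 mice.

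Percent methylation was computed as methylated calls over coverage for windows of chromosomes 1 to 19 with at least 20 calls in all 10 mice. The windows, the gene lists and the rules for naming windows were chosen with earlier results of these data known. Windows were assigned in the order promoter (1000 bp on either side of a start), exon, intron and intergenic, from 45756 RefSeq transcripts of GRCm38, whose sequence was also used. Named were the 8 regions with the most windows, the 10 windows with the widest gap and the 8 promoter windows of protein-coding genes with the largest difference, the last 2 groups with at least 50 calls per mouse, and the windows of gene lists and those nearest the margin. They amount to 23 different windows before the last 2 kinds. OVA-induced and saline mice were compared by logistic regression of the calls and its likelihood ratio test over all windows, with Benjamini-Hochberg adjustment, an adjusted p under 0.01 and at least 10 points, the thresholds of the study. With limma, M-values were log2 ratios with a pseudocount of 1. Scripts were tested on simulated data. Depth, margin, overlap of windows, features, tests, single mice and a limit on the depth ratio were varied. Python 3.11.15, numpy 2.4.6, scipy 1.17.1, pandas 2.3.3, matplotlib 3.10.9, R 4.3.3 and limma 3.58.1 were used.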

Additional observations from a re-analysis of the deposited data

Results flagged for a closer look

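Among 66 sets of values of the 4 DSE-treated mice, 3 had a mouse that stood apart by Dixon's ratio of gap to range (95% critical value), and chance gives about 1 in 20. At the windows lower in DSE-treated mice only, DSE replicate 1 had a median of 297 calls against 246.5 in the next mouse, a ratio of 0.962. At the windows of the opposite pattern it had 499 against 398, a ratio of 0.871. At the promoter of the 1 neutrophil marker with a window, DSE replicate 3 had 56.2% methylation against 53.5%, a ratio of 0.844. Without DSE replicate 1, 1520 windows met the rule, among them 1036 (88.5%) of the 1170.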

How the results depend on the processing

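The number of windows, 1170, was 2562 with a margin of 5 points, 682 with 10, 210 with 15, 571 for windows that do not overlap, 2136 with any amount below OVA-induced mice and 310 at a depth ratio of at most 1.3; the last 2 alternatives were chosen after seeing the data. Leaving out a mouse gave 1284 to 1781, the highest without DSE-treated replicate 2, and kept 88.5% to 95.1% of the 1170. The promoter share, 8.55% (95% exact interval 7.01% to 10.3%), was 10.5% with a margin of 15 points, 4.27% by the window's midpoint, 6.45% at the limited depth ratio and 7.89% to 9.31% without a mouse. The saline mean, 67%, was 68.4% with 10 calls, 65.1% with 50, 69.4% with a margin of 15 points and 66.6% to 68.1% without a mouse. The 47 windows called between OVA-induced and saline mice became 94, 25 and 4 with margins of 5, 10 and 15 points, 23 without overlap, 0 by the F test, 0 by limma, 134 with no threshold on the difference, 133 with any amount below OVA-induced mice and 11 at the limited depth ratio. Leaving out a mouse gave 43 to 96, with 88 without OVA-induced replicate 2, 96 without DSE-treated replicate 1 and 87 without DSE-treated replicate 3. The causes were not tested. Saline and OVA-induced mice share replicate numbers. Deviations of same-numbered mice correlated at 0.0137, -0.0179 and 0.0281 over all windows, and those of differently numbered mice at -0.0556 to 0.0404. Without a reference for paired mice, these values cannot tell whether the numbers pair them. A replicate block gave 49. Other alternatives stayed within 1.5 times or 1 SD. Including chromosome X added 22 windows. With 20 calls single levels are imprecise, and the depth limits windows with small differences most.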

Other observations

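In 8 of the selected windows the mean calls of some group exceeded 3000, and these were singled out after their values were seen. An intron window of Vps45, a gene of vesicle transport, chr3:96044001-96045000, had means of 60.4%, 57.5% and 37.2% (saline, OVA-induced, DSE-treated), with 19.2 times the calls in DSE-treated mice. Overlapping intron windows of 4930447K03Rik, chr13:34103001-34104500, had 69.4%, 68.0% and 56.5% (same order) in the first and 79.1%, 72.6% and 57.2% in the next, with 1.89 and 1.91 times the calls. Whether reads of other copies were counted there was not tested.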
